A study of Homo sapiens with 24 samples.

Results

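The 7 genes described here are MGP, TCN1, GRAMD1B, MYH13, FAM131B, TLE4 and IL33, of 26346 genes in the tables. They were chosen by measured values: their levels in LNCaP prostate cancer cells stood further above the empty vector with an ETV1 construct than with an ERG construct. The 3 LNCaP comparisons therefore chose the genes, and their LNCaP values are given as a description, with no p-value and no call. The rule of the choice did not use the values of the same genes in VCaP and SW13 cells, and those comparisons were tested. The 7 genes were picked with earlier results of these data known, so these tests are not wholly independent of the choice.

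RNA sequencing covered 3 human cell lines with 12 groups, each of 2 libraries that came from separate infections and cultures, 24 in all. LNCaP cells carried ETV1, ERG or the empty vector (Empty) under blasticidin selection for 4 days. VCaP cells, a prostate cancer line whose ERG is driven by the TMPRSS2 fusion, carried an shRNA against ARID1A (shARID1A), one against ERG (shERG) or a control (shCt) under puromycin for 8 days. SW13 cells, from an adrenocortical carcinoma and known for lacking BRG1 and its paralog BRM, received 2 constructs each and both drugs for 2 days: ERG or Empty, beside V5-tagged BRG1, BRG1-K785R (an ATPase mutant) or GFP. All cells were exposed to lentivirus for 48 h. The SW13 control is named GFP in the titles and luciferase in part of the protocol text. Each group is 1 construct or pair of constructs in 1 line, and reads of a construct and of its chromosomal gene cannot be told apart.

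ETV1 and ERG are ETS transcription factors, which bind DNA at a GGAA core. In prostate cancer both are known as fusion or rearrangement partners that put the factor under strong expression, and LNCaP itself carries a rearranged, active ETV1 gene. BRG1 is the ATPase of the BAF chromatin remodeling complex, and ARID1A is a DNA-binding subunit of it. The 7 genes have unlike functions: MGP encodes matrix Gla protein, a vitamin K-dependent inhibitor of calcification. TCN1 encodes haptocorrin, a secreted carrier of cobalamin (vitamin B12). GRAMD1B encodes an endoplasmic reticulum protein that moves cholesterol from the plasma membrane, and MYH13 a myosin heavy chain of extraocular muscle. TLE4 encodes a Groucho co-repressor, IL33 a nuclear cytokine of the IL-1 family, and FAM131B a protein whose function is little known.

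The 250 bases before the outermost annotated start of 5 of the genes are printed here (the outermost of 2 listed promoters for FAM131B, TLE4 and IL33), 5′ to 3′ on the gene's strand, because GGAA is the core that both factors read. They are from RefSeq on GRCh38.p14 and were joined by symbol, since the deposited counts were made on hg19. Capitals mark GGAA or, on the other strand, TTCC. TCN1 lies on the minus strand at chr11:59866488-59866737, MYH13 on the minus strand at chr17:10373007-10373256, FAM131B on the minus strand at chr7:143382305-143382554, TLE4 on the plus strand at chr9:79571715-79571964 and IL33 on the plus strand at chr9:6214899-6215148.
TCN1: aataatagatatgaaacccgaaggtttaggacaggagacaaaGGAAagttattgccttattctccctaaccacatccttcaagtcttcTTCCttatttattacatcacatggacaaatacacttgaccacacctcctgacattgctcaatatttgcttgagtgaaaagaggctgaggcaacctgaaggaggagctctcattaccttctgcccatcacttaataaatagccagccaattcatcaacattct
MYH13: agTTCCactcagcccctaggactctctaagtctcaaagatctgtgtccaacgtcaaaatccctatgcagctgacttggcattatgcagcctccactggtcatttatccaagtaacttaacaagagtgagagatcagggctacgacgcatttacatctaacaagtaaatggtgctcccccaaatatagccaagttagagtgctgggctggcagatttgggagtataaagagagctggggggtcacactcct
FAM131B: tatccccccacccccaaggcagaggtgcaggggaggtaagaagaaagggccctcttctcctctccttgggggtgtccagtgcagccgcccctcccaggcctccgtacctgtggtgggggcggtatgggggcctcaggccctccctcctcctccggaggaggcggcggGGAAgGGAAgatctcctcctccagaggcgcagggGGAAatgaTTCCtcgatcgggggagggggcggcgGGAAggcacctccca
TLE4: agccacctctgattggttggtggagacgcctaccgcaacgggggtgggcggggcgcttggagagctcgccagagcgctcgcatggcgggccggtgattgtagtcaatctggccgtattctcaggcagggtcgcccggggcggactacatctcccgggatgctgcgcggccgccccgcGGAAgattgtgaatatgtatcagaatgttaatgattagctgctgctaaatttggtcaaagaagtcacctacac
IL33: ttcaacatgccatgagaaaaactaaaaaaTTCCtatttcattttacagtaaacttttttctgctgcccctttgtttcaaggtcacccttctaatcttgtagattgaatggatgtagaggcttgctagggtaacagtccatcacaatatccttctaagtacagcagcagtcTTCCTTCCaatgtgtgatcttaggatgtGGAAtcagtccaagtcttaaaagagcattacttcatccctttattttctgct
The core was matched 2 times in TCN1, 1 time in MYH13, 5 times in FAM131B, 1 time in TLE4 and 4 times in IL33. Of 35116 RefSeq promoters cut to the same window, 92.7% held it at least 1 time, with a median of 3 matches, so its presence does not set these genes apart. The longer core CCGGAA and its reverse complement TTCCGG, held by 14.5% of all promoters, was not in these 5 windows, nor was the AP-1 motif TGANTCA, held by 6.57%. GRAMD1B spans chr11:123358422-123627767 and MGP chr12:14880864-14885854 on the same build.

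Libraries held 19754265 to 41996681 counted reads. Levels are CPM, read counts scaled by library total, and log2 changes are from edgeR fits with trimmed-mean scaling, given with an approximate standard error (SE). A call means an adjusted p under 0.05 (edgeR's quasi-likelihood test, adjusted over every gene tested by the Benjamini-Hochberg method). The constructs followed the labels: ETV1 stood at 3688 ± 87.3 CPM in LNCaP with ETV1, 473 ± 41.1 with ERG and 579 ± 16.1 with Empty (SD, n = 2 each). ERG stood at 1.07 ± 0.102 CPM with ETV1, 977 ± 26.7 with ERG and 0.448 ± 0.242 with Empty. The part of these unequal levels, and of the ETV1 already present with Empty, in the LNCaP values was not tested. In VCaP, ERG was at 81.0 and 87.9 CPM with shERG, against 330 and 354 CPM with shCt, and ARID1A at 71.9 and 75.3 CPM with shARID1A, against 251 and 250 CPM with shCt. In SW13, SMARCA4, the gene of BRG1, was at 1959 to 2264 CPM beside BRG1, 1417 to 2180 beside BRG1-K785R and 25.5 to 35.4 beside GFP. Of 8 prostate luminal markers the summed level was 5396 to 6875 CPM in LNCaP and 8428 to 13496 CPM in VCaP libraries, against 15.4 to 195 CPM in SW13. Adrenal cortex markers summed to 11.7 to 22.9 CPM in SW13, below LNCaP and VCaP, with HSD3B2 and MC2R at 0 reads in every SW13 group, so the labelled adrenal origin was not visible in them.

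In LNCaP, MGP reached the highest level of the 7, with 241 and 213 CPM with ETV1, 6.87 and 5.66 CPM with ERG and 0.781 and 0.738 CPM with Empty. The 3 groups did not overlap. Both ERG libraries lay far nearer to Empty than to ETV1 in absolute level, though the ERG mean was 8.24 times the Empty mean. TCN1 had 670 and 513 reads with ETV1, 7 and 3 with ERG and 0 in both Empty libraries. With a floor of 3 counts per library, TCN1 was at least 203-fold higher with ETV1 than with Empty and at least 1.92-fold higher with ERG. It was the gene of the 7 that ERG libraries showed least of, at 0.948% of the ETV1 level.

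GRAMD1B, MYH13 and FAM131B were also well above Empty with ERG. GRAMD1B had 24.3 CPM in each ETV1 library, 5.16 and 5.45 CPM with ERG and 0.277 and 0.262 CPM with Empty. MYH13 had 11.6 and 11.0 CPM with ETV1, 4.03 and 4.22 CPM with ERG and 0.328 and 0.310 CPM with Empty. FAM131B had 10.8 and 10.7 CPM with ETV1, 3.31 and 2.998 CPM with ERG and 0.252 and 0.595 CPM with Empty. For each of the 3 genes the groups stood in the same order without overlap, and the ERG level was 21.8%, 36.4% and 29.4% of the ETV1 level for GRAMD1B, MYH13 and FAM131B. Reads of MYH13 are uncertain where its sequence is shared with other skeletal myosin genes.

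TLE4 and IL33 made a second pattern, with ERG close to Empty. TLE4 had 29.4 and 25.6 CPM with ETV1, 2.09 and 2.11 CPM with ERG and 1.54 and 1.24 CPM with Empty. IL33 had 25.4 and 19.0 CPM with ETV1, 1.21 and 1.499 CPM with ERG and 0 and 2.21 CPM with Empty. The ERG and Empty groups overlapped for IL33, because the Empty libraries held 0 and 93 reads. Without Empty replicate 2 the fitted log2 change of IL33 was 12.72 for ETV1 over Empty and 8.64 for ERG over Empty, against 4.33 and 0.26 with both; these values rest on a library with 0 reads and are no bounds. Without Empty replicate 1 they were 3.36 and -0.72, so the sign for ERG turned. The same Empty libraries also differed in summed fibroblast markers, which ranged from 23.2 to 96.9 CPM. In bulk RNA, fewer cells with a transcript and less of it per cell cannot be told apart.

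**Figure D1:**
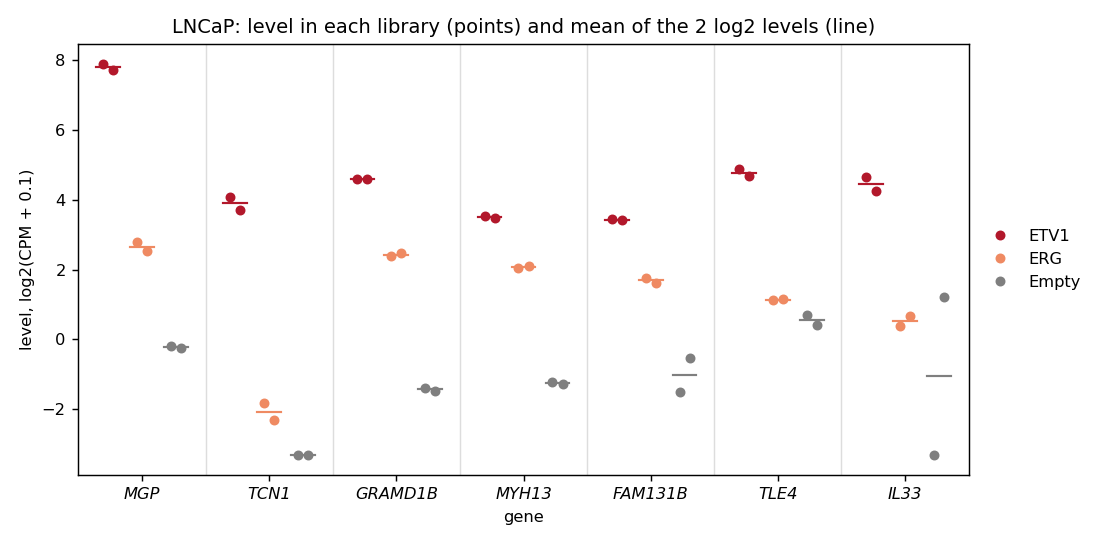
Level of each of the 7 genes in the 6 LNCaP libraries, as log2(CPM + 0.1) on the vertical axis; points are libraries and lines the mean of the 2 log2 levels, for ETV1, ERG and Empty. The ETV1 points lie above the other groups for every gene, the ERG points of IL33 lie between its Empty points, and TLE4 with ERG lies just above Empty.

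The fitted log2 changes set the genes beside the rest of the transcriptome. For ETV1 over Empty they were 8.26 for MGP, 12.18 for TCN1, 6.52 for GRAMD1B, 5.18 for MYH13, 4.68 for FAM131B, 4.35 for TLE4 and 4.33 for IL33. For ETV1 over ERG they were 5.19, 6.67, 2.22, 1.48, 1.79, 3.74 and 4.07 in that order, and the 7 genes ranked between 3 and 142 of 16993 genes by this change. The fitted values for TCN1 rest on 0 reads in Empty and are not bounds. At a log2 change of at least 1, 7, 5 and 7 genes were past it for ETV1 over Empty, ERG over Empty and ETV1 over ERG, where 3.28%, 4.3% and 1.85% of all genes were. These counts only restate how the genes were chosen. Over all genes, 477 (2.81%) were called higher with ETV1 than with both other groups, and 105 of them (0.618%) were at least 2-fold above ERG.

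**Figure D2:**
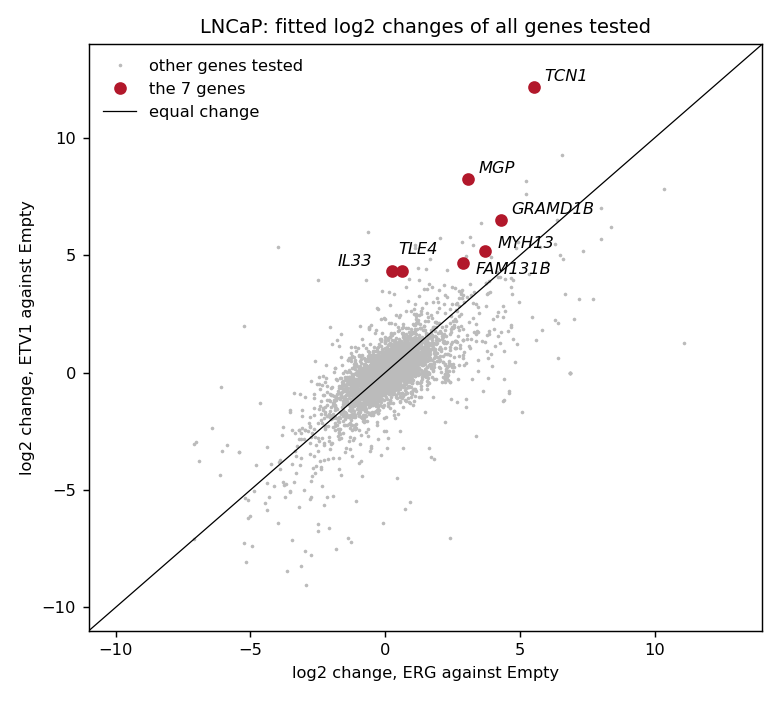
Fitted log2 change with ETV1 against Empty (vertical) over that with ERG against Empty (horizontal) for the 16993 genes tested in LNCaP, with the 7 genes in red and a line of equal change. All 7 lie above the line; TLE4 and IL33 sit near 0 on the horizontal axis, while MGP, GRAMD1B, MYH13 and FAM131B sit between 2.89 and 4.29.

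Per length, the deposited RPKM, a read count divided by gene length and depth, ordered the genes in the ETV1 group as MGP at 154, TCN1 at 9.52, IL33 at 8.19, TLE4 at 5.09, GRAMD1B at 2.97, FAM131B at 2.42 and MYH13 at 1.89. Endothelial markers, some of which are known ETS targets, summed to 57.3 to 60.8 CPM with ETV1, 55.0 to 63.2 with ERG and 26.1 to 28.5 with Empty, with CDH5 and TIE1 at 0 reads in the ETV1 libraries. Most of the sum was VWF, at 58.2 ± 2.38 CPM with ETV1, 56.8 ± 5.91 with ERG and 25.3 ± 0.410 with Empty. Of the 5 endothelial markers tested, 1 was higher and 1 lower with ETV1 than with Empty (median log2 change 0.08), and 0 were higher and 3 lower with ETV1 than with ERG (median -1.78). Their part in these levels was not tested. Skeletal muscle markers stayed at 1.60 CPM or less in sum in all LNCaP libraries.

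The relatives of each gene, from lists of its family or pathway, held some called genes in LNCaP, whose own values were not used to choose the 7. Of all genes, 13.2% were called higher and 12.9% lower with ETV1 than with Empty, 15.4% and 14.3% with ERG than with Empty, and 6.5% and 7.87% with ETV1 than with ERG. Of 10 other IL-1 family genes tested, 3 rose and 0 fell with ETV1 over Empty, with a list median of -0.13, among them the antagonist IL1RN (log2 0.68 ± 0.16, adjusted p = 0.0131). IL1RL1, the receptor of IL-33, had 6 reads with ETV1, 34 with ERG and 8 with Empty. It was higher with ERG than with Empty (2.31 ± 0.51, adjusted p = 0.00900) and lower with ETV1 than with ERG (-2.63 ± 0.53, adjusted p = 0.0128). IL1RL1 passed the filter on low counts only through the ERG libraries, so both p-values are conditioned on that difference. Of 8 other myosin heavy chains, 5 rose and 1 fell with ETV1, or 4 and 1 with library totals as the scale, among them MYH9 (0.55 ± 0.05, adjusted p = 9.08e-05) and MYH1, with 100 reads against 2 in Empty. Of 14 TLE genes and partners, 5 rose and 0 fell with ETV1, or 4 and 0 with library totals, and 7 rose and 0 fell with ERG. TLE1 stood at 52.8 ± 2.92 CPM with ETV1, 95.3 ± 0.101 with ERG and 45.4 ± 0.895 with Empty, so TLE1 was lower with ETV1 than with ERG (-0.82 ± 0.05, adjusted p = 3.62e-05).

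The other lists moved in both directions with ETV1 over Empty. Vitamin K-dependent genes gave 5 rises and 2 falls of 11, or 4 and 2 with library totals, among them PROS1, which encodes protein S (1.16 ± 0.12, adjusted p = 0.000178), and PRRG4, a transmembrane Gla protein gene (-1.01 ± 0.09, adjusted p = 0.000114). Cobalamin genes gave 2 rises and 3 falls of 13, with the intestinal receptor gene CUBN at 5.71 ± 0.984 CPM, against 3.12 ± 0.107 CPM with Empty (0.91 ± 0.16, adjusted p = 0.00339). GRAM domain and sterol transfer genes gave 3 rises and 3 falls of 11, with the cholesterol exporter gene NPC1 at 96.8 ± 10.4 CPM, against 170 ± 13.2 CPM (-0.78 ± 0.08, adjusted p = 0.000181). FAM131A and FAM131C were not called. The list medians were between -0.13 and 0.38, where the median of all genes was 0.01.

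In VCaP the question was what these genes do when ERG itself is lowered. With shERG, MGP and MYH13 fell while FAM131B rose, and IL33 was higher at a low level. MGP had 6.94 and 6.85 CPM with shERG, against 40.2 and 43.7 CPM with shCt (log2 change -2.79 ± 0.08, adjusted p = 1.50e-17). MYH13 had 4 and 7 reads with shERG, against 74 and 67 with shCt (-3.96 ± 0.40, adjusted p = 1.63e-08). In both genes every shERG library lay below both shCt libraries. FAM131B had 6.94 and 5.85 CPM with shERG, against 1.60 and 1.03 CPM with shCt (2.10 ± 0.22, adjusted p = 2.24e-08). IL33 had 35 and 14 reads with shERG, against 2 and 3 with shCt (2.91 ± 0.64, adjusted p = 0.000418), at a mean of 0.839 ± 0.419 CPM with shERG. IL33 passed the filter on low counts in VCaP only through the shERG libraries, so that p is conditioned on the difference, and without the filter the adjusted p was 0.000154. MYH13 passed it only through the shCt libraries, so its p-values against shCt are conditioned on the difference too. No value without the filter is given for MYH13.

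GRAMD1B was called lower with shERG (-0.54 ± 0.19, adjusted p = 0.0173), at 3.37 and 3.06 CPM, against 4.27 and 3.98 CPM with shCt. The call was lost when library totals set the scale (adjusted p = 0.105), with DESeq2 (0.119) and without shCt replicate 1, shERG replicate 1 or shERG replicate 2 (adjusted p of 0.0900, 0.0599 and 0.0807). TLE4 was at 6.0003 and 6.19 CPM with shERG, against 5.79 and 5.20 CPM with shCt, and was not called (-0.03 ± 0.14, adjusted p = 0.847), but lay at 0.15 when scaled by library totals (adjusted p = 0.366), so its sign depends on the scaling. Scaling by library totals moved the median log2 change of all genes from -0.05 to 0.13 in this comparison. TCN1 had 0 reads in both groups.

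Of the 5 genes other than IL33 that passed the filter on low counts, 1 was called higher and 3 lower, where 66.7% of all genes tested were called, 29.3% higher and 37.4% lower. The falls include MYH13, whose place in the fit rests on the shCt libraries. With a background this high, the count says nothing particular about these genes. Summed fibroblast markers were 81.4 to 82.8 CPM with shERG, against 29.7 to 30.4 CPM with shCt, with COL1A2 and THY1 at 0 reads in both groups. Their part in the IL33 and FAM131B values was not tested.

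Lowering ARID1A gave another set. ERG itself was lower too, at 242 and 238 CPM with shARID1A, against 330 and 354 CPM with shCt. Its part in the changes below was not tested. MYH13 fell to 5 and 1 reads with shARID1A, against 74 and 67 with shCt (-4.58 ± 0.46, adjusted p = 1.15e-08). GRAMD1B had 1.43 and 1.03 CPM with shARID1A, against 4.27 and 3.98 CPM with shCt (-1.79 ± 0.23, adjusted p = 4.50e-07). Both genes were lower in each shARID1A library than in each shCt library. MGP was at 48.3 and 47.9 CPM with shARID1A, against 40.2 and 43.7 CPM with shCt, a difference of 0.13 ± 0.06 on the log2 scale that was not called (adjusted p = 0.0852). It was called with RLE scaling (adjusted p = 0.0489) and with library totals (0.0123). FAM131B (0.10 ± 0.28, adjusted p = 0.756) and TLE4 (-0.30 ± 0.15, adjusted p = 0.0911) were not called. IL33 had 1 read with shARID1A, against 5 with shCt, a ratio of 0.199 with a 95% counting interval of 0.00421 to 1.78. TCN1 had 2 reads in each shARID1A library. Of the 5 genes other than IL33, 0 were called higher and 2 lower, where 66.1% of genes were called, 32.9% higher and 33.2% lower. The falls again include MYH13, which passed the filter on low counts only through the shCt libraries, so its p is conditioned on the difference.

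Set against each other, the 2 knockdowns differed in 3 of the 5 genes other than IL33, where 73% of all genes were called, 36.8% higher and 36.2% lower. MGP was higher with shARID1A than with shERG (2.92 ± 0.08, adjusted p = 2.17e-18). GRAMD1B (-1.25 ± 0.23, adjusted p = 5.94e-05) and FAM131B (-1.99 ± 0.21, adjusted p = 2.25e-08) were lower with shARID1A than with shERG. IL33 had 1 read with shARID1A, against 49 with shERG (ratio 0.0223, counting interval 0.000553 to 0.130). Its adjusted p of 2.06e-05 is conditioned on the shERG libraries in the same way, and was 4.82e-07 without the filter. MYH13, low with both shRNAs, was not called between them (-0.62 ± 0.78, adjusted p = 0.484). TLE4 was not called (-0.26 ± 0.15, adjusted p = 0.116), but was with library totals (0.0255). ERG itself was at 242 and 238 CPM with shARID1A, against 81.0 and 87.9 CPM with shERG.

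**Figure D3:**
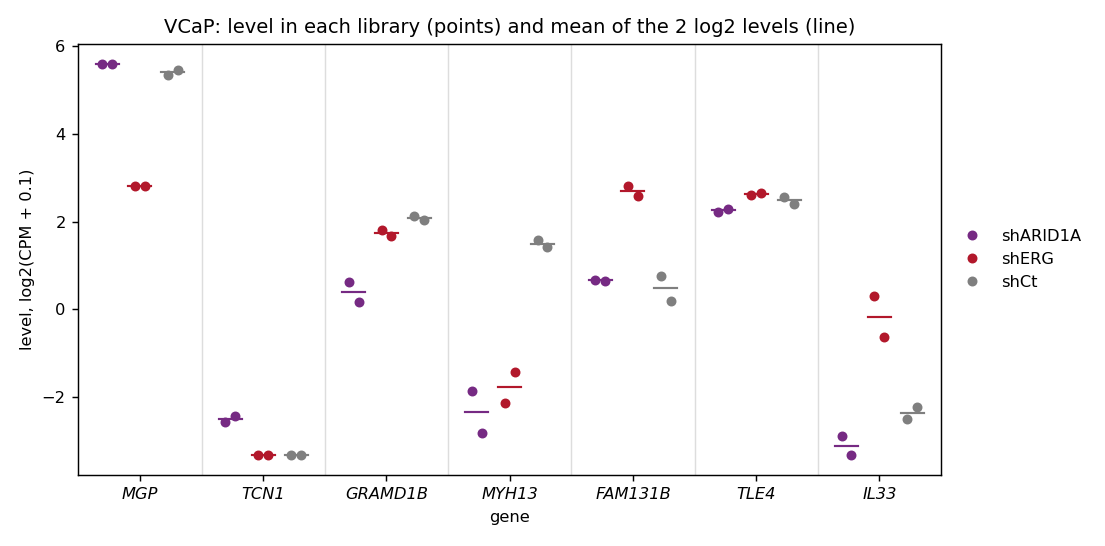
Level of each of the 7 genes in the 6 VCaP libraries, as log2(CPM + 0.1); points are libraries and lines the mean of the 2 log2 levels, for shARID1A, shERG and shCt. MGP is low only with shERG of the 3 groups, MYH13 is low with both knockdowns, GRAMD1B is lowest with shARID1A, and FAM131B and IL33 are highest with shERG.

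Among relatives in VCaP, IL1RN, whose product blocks the IL-1 receptor, fell with shERG to 0.168 ± 0.129 CPM, against 4.85 ± 0.221 CPM with shCt (-4.93 ± 0.34, adjusted p = 3.04e-11). Over all genes tested with shERG, 29.3% were called higher and 37.4% lower. Of 7 IL-1 family genes tested beside IL33, 1 rose and 5 fell, or 1 and 4 with library totals. The vitamin K-dependent list gave 2 rises and 5 falls of 11, or 3 and 4 with library totals. NQO1, a quinone reductase, fell (-2.09 ± 0.09, adjusted p = 1.32e-14), and so did GGCX, the carboxylase that modifies MGP protein (-0.79 ± 0.05, adjusted p = 1.06e-11). Of 12 TLE genes and partners, 1 rose and 6 fell with shERG, or 3 and 5 with library totals, with RUNX1 at 3.30 ± 0.312 CPM, against 12.7 ± 1.24 CPM (-2.13 ± 0.14, adjusted p = 7.25e-12).

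In the sterol transfer list most genes rose in VCaP. With shARID1A, where GRAMD1B fell, all 11 of its other genes rose, the same count with library totals, led by NPC2 (1.36 ± 0.05, adjusted p = 5.61e-16) and GRAMD1C, a paralog (1.09 ± 0.09, adjusted p = 6.73e-10). With shERG 7 of the 11 rose and 0 fell, or 9 and 0 with library totals, among them GRAMD4 (1.00 ± 0.09, adjusted p = 1.26e-09). The medians were 0.67 and 0.44, where those of all genes were 0.01 and -0.05, and 32.9% and 29.3% of all genes were called higher. Called lower were 33.2% of all genes with shARID1A and 37.4% with shERG. Among 7 other myosin heavy chains 2 rose and 2 fell with shERG, or 2 and 1 with library totals, and 3 rose and 1 fell with shARID1A. MYH9, a nonmuscle myosin, fell with shERG (-0.45 ± 0.05, adjusted p = 1.36e-08) and rose with shARID1A (0.74 ± 0.05, adjusted p = 2.29e-12). The cobalamin list gave 4 rises and 4 falls of 13 with shERG, or 6 and 2 with library totals, and 3 and 7 with shARID1A, where the cobalamin receptor gene CD320 fell (-2.24 ± 0.09, adjusted p = 1.86e-15). FAM131A rose with shARID1A (0.34 ± 0.09, adjusted p = 0.00335) and FAM131C was not called.

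SW13 offered 3 backgrounds for the same ERG construct. With that construct, ERG averaged 2003 ± 204 CPM beside BRG1, 1597 ± 16.9 beside BRG1-K785R and 1530 ± 79.9 beside GFP. Both BRG1 libraries lay above those of the other backgrounds. The part of this ERG level in the ERG effects was not tested. ETV1, the factor that the choice of genes was about, was present in SW13 without a construct of its own, at 51.6 to 153 CPM. ETV1 averaged 51.8 ± 0.276 CPM with ERG, against 62.1 ± 3.78 with Empty, beside BRG1, 93.3 ± 1.99 against 57.5 ± 4.00 beside BRG1-K785R and 153 ± 0.0376 against 112 ± 0.537 beside GFP, and its part in the ERG comparisons was not tested. MGP had at most 3 reads in any SW13 library and 0 in all 8 libraries beside GFP or BRG1-K785R. TCN1 had at most 3 reads in any of them. Both were below the filter on low counts, and 5 genes were tested. GRAMD1B and IL33 passed that filter through the BRG1 groups, where they were higher, so their p-values are conditioned on that difference. For these 2 genes the adjusted p without the filter is given beside each call, and counts are over the other 3 genes (MYH13, FAM131B and TLE4).

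Beside BRG1, GRAMD1B, FAM131B and IL33 were higher with ERG. IL33 had 4.32 and 4.06 CPM with ERG, against 0.903 and 1.00 CPM with Empty (2.17 ± 0.27, adjusted p = 7.14e-08, or 1.88e-13 without the filter). FAM131B had 7.95 and 8.19 CPM with ERG, against 3.20 and 2.85 CPM with Empty (1.46 ± 0.22, adjusted p = 1.82e-06). GRAMD1B had 3.28 and 3.74 CPM with ERG, against 0.978 and 1.45 CPM with Empty (1.58 ± 0.30, adjusted p = 7.39e-05, or 1.93e-07 without the filter). In each of the 3 the ERG libraries lay above the Empty libraries, and the calls held when any 1 library was left out. MYH13 was at 1.56 and 1.89 CPM with ERG, against 1.58 and 1.69 CPM with Empty (0.12 ± 0.26, adjusted p = 0.726). TLE4 was at 3.32 and 3.82 CPM with ERG, against 4.66 and 4.58 CPM with Empty (-0.33 ± 0.19, adjusted p = 0.152). Of the other 3 genes 1 was called, FAM131B, beside 45.4% of genes called, 22.6% higher and 22.8% lower. Endothelial markers summed to 64.4 to 78.5 CPM with ERG, against 22.3 to 22.5 CPM with Empty beside BRG1, with EMCN alone at 0 reads in the Empty libraries. Prostate luminal markers summed to 146 to 195 CPM with ERG, against 71.1 to 72.3 CPM. Their part in the 3 rises was not tested.

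Beside GFP, 0 of the other 3 genes were called with ERG (edgeR, with 0 at an unadjusted p under 0.05, and 0 with DESeq2), where 26% of genes were, 12.6% higher and 13.5% lower. GRAMD1B had 2 and 11 reads with ERG, against 1 and 0 with Empty (adjusted p = 0.0262, still called without the filter), a ratio of 12.8 with a counting interval of 1.93 to 546. That call was lost without GFP Empty replicate 2 (adjusted p = 0.238) and without GFP ERG replicate 2 (0.521), and neither DESeq2 nor a fit of only these 2 groups returned an adjusted p for it. IL33 had 1 and 2 reads with ERG, against 3 and 4 with Empty, a ratio of 0.423 with an interval of 0.0707 to 1.86. FAM131B (0.25 ± 0.35, adjusted p = 0.654), MYH13 (0.33 ± 0.24, adjusted p = 0.346) and TLE4 (0.05 ± 0.22, adjusted p = 0.899) were not called.

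Beside BRG1-K785R, 1 of the other 3 genes was called with ERG, where 56.2% of genes were, 25.3% higher and 30.9% lower. MYH13 had 2.48 and 1.87 CPM with ERG, against 3.08 and 3.30 CPM with Empty (-0.74 ± 0.24, adjusted p = 0.00882), and the call was lost without BRG1-K785R ERG replicate 2 (adjusted p = 0.125). FAM131B was at 3.19 and 2.88 CPM with ERG, against 1.65 and 2.04 CPM with Empty (0.54 ± 0.28, adjusted p = 0.101), and was called with library totals (0.0362). IL33 was at 0.354 and 0.505 CPM with ERG, against 0.338 and 0.453 CPM with Empty (-0.05 ± 0.50, adjusted p = 0.945). GRAMD1B (-0.26 ± 0.69, adjusted p = 0.772) and TLE4 (-0.24 ± 0.22, adjusted p = 0.352) were not called. Library totals moved the median log2 change of all genes from -0.01 to 0.17 here.

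The difference between ERG effects was tested directly. The IL33 effect was larger beside BRG1 than beside BRG1-K785R (difference 2.23 ± 0.58, adjusted p = 0.00208, or 0.000925 without the filter) and larger than beside GFP (3.40 ± 0.96, adjusted p = 0.00560, or 0.00391 without the filter). The first held in every alternative tried, with differences of 1.99 to 2.48, and the second was lost without GFP Empty replicate 2 (adjusted p = 0.0571). FAM131B also differed from both, by 0.92 ± 0.36 against BRG1-K785R (adjusted p = 0.0348) and 1.21 ± 0.42 against GFP (0.0230). The FAM131B call against BRG1-K785R was lost with library totals (0.140), with DESeq2 (0.0977) and without BRG1-K785R Empty replicate 2, BRG1-K785R ERG replicate 2, BRG1 Empty replicate 2 or BRG1 ERG replicate 2 (0.0501 to 0.146). That against GFP was lost without GFP Empty replicate 2 (0.264), GFP ERG replicate 1 (0.235) or BRG1 Empty replicate 2 (0.0638). GRAMD1B (1.84 ± 0.77, adjusted p = 0.0488, or 0.0266 without the filter) and MYH13 (0.86 ± 0.35, adjusted p = 0.0449) differed against BRG1-K785R with calls that RLE scaling (0.0542 and 0.0513), library totals (0.0978 and 0.143) and DESeq2 (0.0881 and 0.133) did not make, and neither did against GFP (GRAMD1B -1.76 ± 1.24, adjusted p = 0.276; MYH13 -0.20 ± 0.36, adjusted p = 0.697). The MYH13 call against BRG1-K785R was also lost in a fit of only the groups compared (adjusted p = 0.0509). Leaving out single libraries ended both calls in several fits, with differences of 1.59 to 2.14 for GRAMD1B and 0.66 to 0.91 for MYH13. TLE4 differed in neither comparison (adjusted p of 0.836 and 0.317). For MYH13 the larger change was the fall beside BRG1-K785R. Of the other 3 genes, 2 were called against BRG1-K785R and 1 against GFP. Of all genes 46.2% (25.8% higher, 20.4% lower) and 37.8% (19.1% higher, 18.7% lower) were.

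Without ERG, levels of 4 genes were higher beside BRG1 than beside GFP. IL33 had 24 and 25 reads beside BRG1, against 3 and 4 beside GFP (2.53 ± 0.50, adjusted p = 5.53e-05, or 6.39e-06 without the filter). GRAMD1B had 26 and 36 reads beside BRG1, against 1 and 0 beside GFP, a ratio of 57.8 with a counting interval of 10.0 to 2319 (adjusted p = 5.92e-07, or 2.25e-12 without the filter). FAM131B (1.43 ± 0.30, adjusted p = 0.000118) and TLE4 were higher too, TLE4 at 4.66 and 4.58 CPM, against 2.27 and 2.43 CPM beside GFP (0.84 ± 0.20, adjusted p = 0.000494). All 4 had BRG1 libraries above the GFP libraries. MYH13 was at 1.58 and 1.69 CPM beside BRG1, against 2.00 and 1.96 CPM beside GFP (-0.41 ± 0.26, adjusted p = 0.164). Of the other 3 genes 2 were called, beside 62.4% of genes called, 32.2% higher and 30.2% lower.

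The ATPase mutant gave smaller values for IL33 and GRAMD1B. Beside BRG1-K785R, IL33 had 9 and 10 reads, against 3 and 4 beside GFP (1.47 ± 0.60, adjusted p = 0.0362, or 0.0448 without the filter), and GRAMD1B 7 and 6 reads, against 1 and 0 (ratio 12.8, interval 1.92 to 544, adjusted p = 0.00805, or 0.00225 without the filter). FAM131B (0.92 ± 0.33, adjusted p = 0.0163) and MYH13 (0.76 ± 0.23, adjusted p = 0.00548) were higher, and TLE4 was not called (0.33 ± 0.21, adjusted p = 0.182). Of the other 3 genes 2 were called, where 58.7% were called, 32.3% higher and 26.4% lower. The IL33 call was lost without any 1 of the 4 libraries compared (adjusted p of 0.0530 to 0.151), the FAM131B call without GFP Empty replicate 1 (0.166) or BRG1-K785R Empty replicate 2 (0.107), and the GRAMD1B call without GFP Empty replicate 2 (0.0893).

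BRG1 against its mutant, without ERG, separated MYH13 from the rest. MYH13 was lower beside BRG1 than beside BRG1-K785R (-1.18 ± 0.24, adjusted p = 6.26e-05), at 1.58 and 1.69 CPM, against 3.08 and 3.30 CPM. GRAMD1B was higher beside BRG1 (1.94 ± 0.48, adjusted p = 0.000682, or 5.05e-05 without the filter), at 0.978 and 1.45 CPM, against 0.263 and 0.272 CPM. IL33 (1.06 ± 0.40, adjusted p = 0.0212, or 0.0286 without the filter) and TLE4 (0.50 ± 0.19, adjusted p = 0.0220) were higher with calls that DESeq2 did not make (0.0655 and 0.0636). Leaving out BRG1-K785R Empty replicate 1 (0.159) or BRG1 Empty replicate 2 (0.0854) ended the IL33 call, and leaving out any 1 of the 4 libraries ended that of TLE4 (0.0600 to 0.105). FAM131B was not called (0.51 ± 0.27, adjusted p = 0.0933), but was with library totals (0.0263) and in a fit of only the groups compared (0.0356). Of the other 3 genes 1 was called higher and 1 lower, beside 66.7% of genes called, 32.6% higher and 34.1% lower, and scaling by library totals shifted the all-gene median from 0.01 to 0.22.

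**Figure D4:**
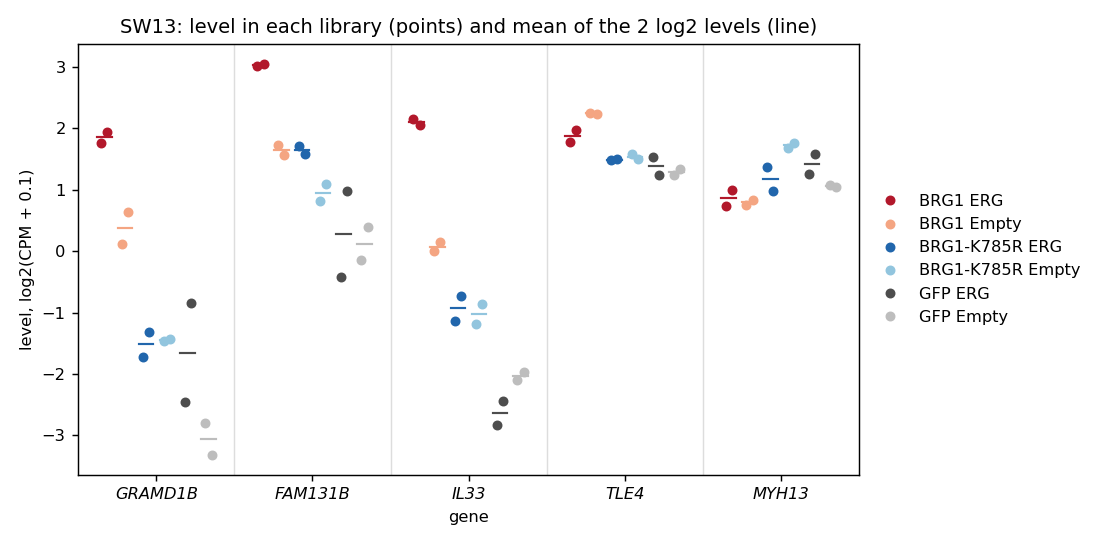
Level of GRAMD1B, FAM131B, IL33, TLE4 and MYH13 in the 12 SW13 libraries, as log2(CPM + 0.1); points are libraries and lines the mean of the 2 log2 levels. GRAMD1B, FAM131B and IL33 are highest in the BRG1 ERG libraries, TLE4 in the BRG1 Empty libraries and MYH13 in the BRG1-K785R Empty libraries.

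Other IL-1 family genes in SW13 gave unlike counts. With BRG1 over GFP, 4 of 6 tested rose and 0 fell, where 32.2% of all genes rose and 30.2% fell, among them IL18, with 56 reads against 0, and IL1B, with 51 reads against 0. IL1B had 0 reads in every group beside GFP or BRG1-K785R. It passed the low-count filter only through the BRG1 groups, so this count of rises is in part conditioned on the difference. With ERG beside BRG1, 2 rose and 3 fell of the 6 with a list median of -1.40, where 22.6% of all genes rose and 22.8% fell and IL33 was higher. The rises were IL1RAP, the shared co-receptor (0.72 ± 0.11, adjusted p = 1.31e-06), and SIGIRR, an inhibitory receptor (1.01 ± 0.15, adjusted p = 2.10e-06). TCN2, the gene of the other cobalamin carrier in blood, rose with ERG beside BRG1 to 6.23 ± 0.722 CPM, against 2.05 ± 0.288 CPM (1.65 ± 0.21, adjusted p = 8.67e-08), where TCN1 had 3 reads in each group. That list gave 4 rises and 0 falls of 13, or 4 and 1 with library totals. Vitamin K-dependent genes gave 6 rises and 1 fall of 11 with ERG beside BRG1, or 5 and 1 with library totals, and sterol transfer genes 4 rises and 1 fall of 10, or 3 and 1. Myosin heavy chains gave 0 rises and 4 falls of 10, and the TLE list 1 rise and 2 falls of 13, or 0 and 2 with library totals. FAM131A and FAM131C were not called.

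Across all 12 groups every one of the 7 genes had its highest mean level in LNCaP with ETV1, and the 2 libraries of that group overlapped no other group. This is a description, since these levels chose the genes, and levels across lines were not tested. What differed was the group that came next. For MGP it was VCaP with shARID1A at 48.1 ± 0.287 CPM, followed by shCt at 42.0 ± 2.48 CPM, and for TLE4 VCaP with shERG at 6.10 ± 0.137 CPM. For FAM131B and IL33 it was SW13 with BRG1 and ERG, at 8.07 ± 0.170 and 4.19 ± 0.183 CPM. For TCN1, GRAMD1B and MYH13 it was LNCaP with ERG. The lowest level of MYH13 was with shARID1A at 0.109 ± 0.0931 CPM, which overlapped shERG, and that of TLE4 and FAM131B was in LNCaP with Empty. Over the 12 group means of log2(CPM + 1), Pearson's r between pairs of the 7 ranged from 0.26 for MGP and MYH13 to 0.86 for TCN1 and IL33, over 21 pairs, with the ETV1 group a high point shared by all.

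**Figure D5:**
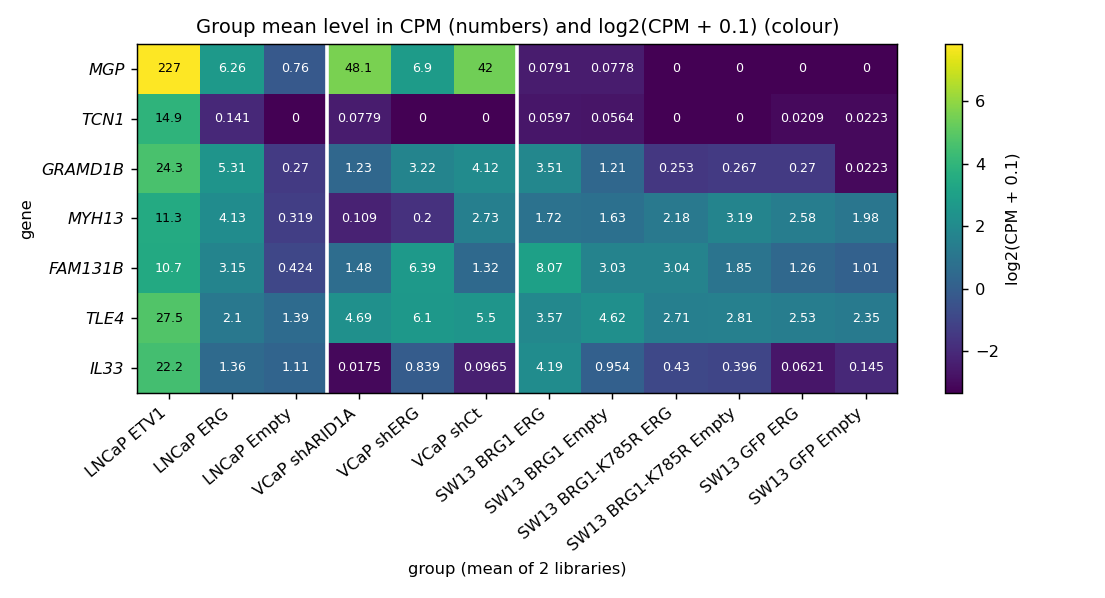
Mean level of the 7 genes in the 12 groups, as CPM in the cells and log2(CPM + 0.1) in colour, with white lines between LNCaP, VCaP and SW13. LNCaP with ETV1 is the highest column for every gene; MGP is also high in VCaP with shARID1A and shCt, and FAM131B and IL33 in SW13 with BRG1 and ERG.

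The genes whose 12 group means were most like the mean profile of the 7, among 14165 genes, were SASH3 (r = 0.95), ANGPT4 (0.94), CD3D (0.92), MYCN (0.92) and CLEC2B (0.89). All 5 were low, with means of 1.11 ± 1.02, 1.45 ± 0.286, 1.00 ± 1.24, 1.73 ± 0.104 and 4.57 ± 0.730 CPM in LNCaP with ETV1, and for SASH3 and CD3D the SD was about the size of the mean. The mean profile has its high point in that group, whose levels chose the 7 genes, so these r values are a description. Taken 1 by 1, LAMC1, a laminin chain gene, was most like MGP (r = 0.94), at 416 ± 20.2 CPM with shERG, against 1016 ± 11.0 CPM with shCt. PRSS23 was most like GRAMD1B (0.89), TSPAN12 most like MYH13 (0.81), MYCN most like TLE4 (0.93), CD3D most like TCN1 (1.00) and SASH3 most like both FAM131B (0.82) and IL33 (0.95). The value for CD3D and TCN1 rests on LNCaP with ETV1. In every other group CD3D was at 0.0341 CPM or less and TCN1 at 0.141 CPM or less. PRSS23, a protease gene, stood at 259 ± 20.1 CPM in LNCaP with ETV1, 283 ± 7.46 with ERG and 15.9 ± 3.11 with Empty, so it lacked the gap between ETV1 and ERG. TSPAN12, a tetraspanin gene, stood at 112 ± 3.66, 45.5 ± 3.55 and 18.3 ± 2.92 CPM in those groups.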

How the data were processed

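PolyA RNA from RNeasy kits was read as 75 base single-end sequence on a NextSeq 500, per the labels' protocols. The authors deposited, for each library, a table of counts per gene, gene lengths and RPKM. Per the submitters' processing notes, STAR 2.3.1 and hg19 were used. How reads were counted, on which annotation and with which strand setting is not given in the sources used here. The deposited counts were tested, and the deposited RPKM values, which equal counts scaled by length and library total, were used only for levels between genes.

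Each line was fitted on its own with edgeR 4.0.16 (limma 3.58.1, R 4.3.3), with all its groups in 1 fit, TMM scaling and filterByExpr by group, which kept 16993 (LNCaP), 16791 (VCaP) and 17018 (SW13) genes. Residual degrees of freedom were 3, 3 and 6, and factors were 0.938 to 1.08 in VCaP and 0.910 to 1.07 in SW13. The quasi-likelihood F test was two-sided. There were 12 comparisons of groups and 2 differences of effects. The SE is the log2 change over the root of F. A group with 0 reads was given a floor of 3 counts per library, and 1 to 3 reads a ratio with an exact 95% interval. Both cover counting error only. Between the libraries of a group the chi-square per degree of freedom was 2.32 to 13.8. Python 3.11.15, pandas 2.3.3 and scipy 1.17.1 made the tables, and matplotlib 3.10.9 the figures.

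Promoters and positions came from RefSeq tables by symbol, with promoters for 5 of the 7 genes. The 7 genes, the lists and the tests were chosen with earlier results of these data known. Named relatives were at most 2 called genes per list and comparison, by smallest adjusted p and without overlap between groups; IL1RL1 values and FAM131 genes that were not called were named beside them. Genes most like the 7 were taken by Pearson's r over 12 group means, among genes reaching 1 CPM in a group. Alternatives were RLE scaling, library totals, all genes kept without the low-count filter and a fit by DESeq2 1.42.0. Further ones were fits limited to the groups compared, the replicate number as a block and leaving out each library in turn.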

Additional observations from a re-analysis of the deposited data

Results flagged for a closer look

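In SW13 the effect of ERG over Empty differed between backgrounds for IL33, GRAMD1B, FAM131B and MYH13. These calls are from a direct test of the difference (edgeR's quasi-likelihood test, adjusted over all genes). Beside BRG1 against BRG1-K785R, the difference in log2 effect was 2.23 for IL33 (adjusted p = 0.00208), 1.84 for GRAMD1B (0.0488), 0.92 for FAM131B (0.0348) and 0.86 for MYH13 (0.0449). Beside BRG1 against GFP it was 3.40 for IL33 (0.00560) and 1.21 for FAM131B (0.0230). The 2 differences share the BRG1 libraries. Of the 3 genes other than GRAMD1B and IL33, 2 were called against BRG1-K785R and 1 against GFP, where 46.2% and 37.8% of all genes were. GRAMD1B and IL33 passed the low-count filter through the BRG1 groups, and without the filter the adjusted p against BRG1-K785R was 0.0266 for GRAMD1B and 0.000925 for IL33. Against BRG1-K785R the calls of GRAMD1B, MYH13 and FAM131B were lost with library totals (0.0978, 0.143 and 0.140) and with DESeq2 (0.0881, 0.133 and 0.0977). Leaving out single libraries ended each of these calls in several fits. For MYH13 the difference came with a fall with ERG beside BRG1-K785R (-0.74) and a value of 0.12 beside BRG1 that was not called, whereas for IL33 it came with a rise beside BRG1 (2.17). SMARCA4 also differed with ERG beside BRG1-K785R, at 1417 and 1430 CPM with ERG, against 2180 and 2039 CPM with Empty. ERG itself was at 1859 and 2148 CPM with its construct beside BRG1. It was at 1609 and 1585 CPM beside BRG1-K785R and at 1474 and 1587 CPM beside GFP. The part of either gene in these differences was not tested.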

How the results depend on the processing

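No called result changed direction under any alternative run. The counts of the 7 genes called kept within 1.5 times for the 3 VCaP comparisons, for ERG beside BRG1 and for BRG1 over GFP in each alternative, and the LNCaP counts of genes past the 2-fold line did too. For the difference of ERG effects between BRG1 and BRG1-K785R, 4 genes were called, but 2 with RLE scaling, 1 with library totals, 1 with DESeq2 and 1 to 3 without single libraries. For ERG beside BRG1-K785R, 1 was called, against 2 with library totals, 2 with only the compared groups and 0 to 1 without single libraries. For ERG beside GFP, 1 was called, against 0 with only the compared groups, 0 with DESeq2 and 0 to 1 without single libraries. For BRG1-K785R over GFP, 4 were called, against 2 with only the compared groups and 2 to 3 without single libraries. For BRG1 over BRG1-K785R, 4 were called, against 2 with DESeq2 and 2 to 3 without single libraries. For the difference between BRG1 and GFP, 2 were called, against 0 to 2 without single libraries. The cause was not tested. Of the values of single genes, 725 kept their side of the threshold or stayed within the replicate spread, 54 lost a call, 7 gained one and 34 moved beyond the spread.

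Library totals moved the share of calls that were higher from 43.9% to 60.5% for shERG over shCt, from 45.1% to 64.6% for ERG beside BRG1-K785R, from 48.3% to 62.0% beside GFP, from 51.6% to 64.1% for BRG1 over GFP, from 48.9% to 66.0% for BRG1 over BRG1-K785R, from 50.5% to 39.98% for ETV1 over Empty and from 45.2% to 35.2% for ETV1 over ERG. For the differences of effects it moved from 55.8% to 29.9% against BRG1-K785R and from 50.4% to 37.1% against GFP.

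The replicate numbers did not pair the libraries, which came from independent infections: deviations of same-numbered libraries correlated at -0.10 to 0.12. With the replicate number as a block the counts stayed the same in each comparison, for example 5 for shERG over shCt and 3 for ERG beside BRG1. With 2 libraries a group, few reads limit the precision of IL33 in VCaP, GRAMD1B beside GFP and TCN1 outside LNCaP with ETV1. The counts here include GRAMD1B and IL33, whose place in the SW13 fit rests on the groups where they were high. In the VCaP fit the same holds for IL33, through shERG, and for MYH13, through shCt.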
